A study of Mus musculus with 12 samples.

Results

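Gys2, the gene of the liver-type glycogen synthase, was measured with 8 further genes of glycogen metabolism in mouse brown fat. The 9 genes are Gys2, Gys1, Gyg, Gbe1, Ugp2, Pygb, Pygl, Ppp1r3b and Ppp1r3c, out of 22180 genes with a probe set that names exactly 1 gene symbol. Gys2 was picked for its lower signal in the knockout on these same arrays, so its differences between the genotypes are descriptions without a test. The other 8 were picked by their roles in the pathway, with earlier results of these data known. For each gene the probe set with the highest mean over all arrays was taken.

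RNA was taken from the brown fat of male mice 10 weeks old, either wild type (WT) or knocked out for Zbtb7b (KO), a zinc finger transcription factor. Both genotypes were on standard chow and were kept at room temperature, 22 °C, or exposed to 4 °C for 4 h. Each of the 4 groups held 3 arrays, 12 in all: WT at room temperature, KO at room temperature, WT in the cold and KO in the cold. The construct of the knockout, the cells in which it is deleted and the strain were not given in the sources used here. The titles number biological replicates while the description field numbers pools, so the p-values rest on the spread between these arrays, and whether that spread is between animals is not known. The description field also names liver and an Nrg4 knockout, against the title, source, genotype and tissue fields.

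Glycogen is a branched polymer of glucose. UDP-glucose is made by Ugp2, glycogenin (Gyg) primes a new chain, glycogen synthase (Gys1 in most tissues, Gys2 mainly in liver and fat) lengthens it, and the branching enzyme Gbe1 adds branch points. Glycogen phosphorylase releases glucose 1-phosphate, and it is inactivated, while synthase is activated, by protein phosphatase 1 held on the particle by targeting subunits such as Ppp1r3b and Ppp1r3c. In brown fat, noradrenaline released in the cold acts through cyclic AMP, the signal that activates phosphorylase.

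The tissue and genotype were checked on the same arrays. Ucp1, the uncoupling protein that defines brown adipocytes, lay between 11.55 and 12.95 log2 units on all 12 arrays, while Alb, the albumin of hepatocytes, lay between 1.21 and 2.75, near the array medians of 2.63 to 2.83. Of the 19 hepatocyte genes, Cyp2e1 averaged 11.20 over all arrays and Hpd 5.07, and the others from 1.22 to 4.44. Hpd was higher in KO by 1.499 ± 0.29 in the cold (adjusted p = 0.0330), the only gene of that list to pass between the genotypes there (both named after their values were seen). Zbtb7b was lower in KO by 1.11 ± 0.16 log2 units (SE, n = 3 against 3, adjusted p = 0.00904) at room temperature and by 1.30 ± 0.16 (adjusted p = 0.00365) in the cold, with no overlap, but the position of its probe set against the deleted part is not known. The mean of 22 skeletal muscle genes ranged from 3.01 to 8.46 within and across groups, so the share of muscle RNA was unequal between arrays. It also leaned by group, though none of the 22 genes passed. All 22 were above 0 for KO against WT at room temperature (median 2.35) and with cold in WT (median 2.81). Between the genotypes in the cold 12 of 22 were above 0 (median 0.07), and with cold in KO 19 of 22 (median 0.38). The third KO array in the cold stood apart in its neutrophil list mean, 3.88 against 1.86 to 2.52 on the other 11 arrays.

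Gys2 signal was high in WT, low in KO at room temperature, and in between in KO in the cold. In WT at room temperature the 3 arrays read 7.87, 8.33 and 8.59 log2 units, and in KO at room temperature 4.57, 5.39 and 4.74. In WT in the cold they read 8.36, 8.44 and 8.52, and in KO in the cold 7.21, 7.20 and 6.47. Every KO array lay below every WT array, and at room temperature the highest KO array was more than 2 log2 units under the lowest WT array.

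**Figure D1:**
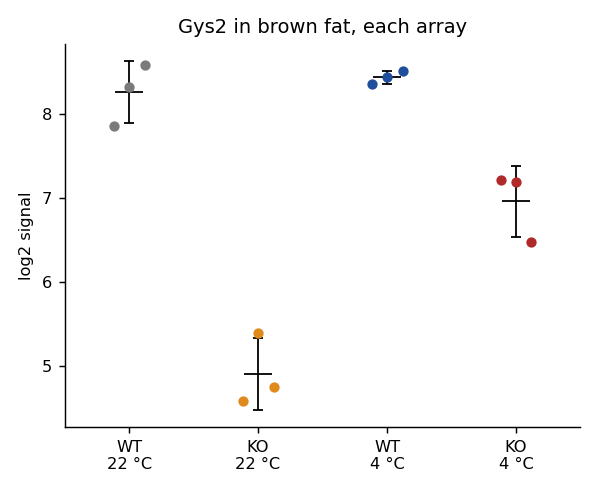
Log2 signal of Gys2 (vertical axis) on each of the 12 arrays, by genotype and temperature (horizontal axis); dots are arrays, and the black mark and bars are the group mean and SD of 3 arrays. The WT groups overlap at 8.26 and 8.44, KO at room temperature lies at 4.90, and KO in the cold at 6.96.

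At room temperature the mean was 8.26 ± 0.37 (SD, n = 3) in WT and 4.90 ± 0.43 in KO, a difference of -3.36 ± 0.26 (SE), or 10.3-fold lower. In the cold the means were 8.44 ± 0.08 in WT and 6.96 ± 0.42 in KO, a difference of -1.48 ± 0.26, or 2.79-fold lower. Ordered by level, WT in the cold and WT at room temperature came first and overlapped, followed by KO in the cold and then KO at room temperature, with no overlap of arrays between any neighbours but the first pair. Among the log2 differences of all 22180 genes, that of Gys2 ranked 3 from the lowest at room temperature, 25 from the lowest in the cold, and 1 when both temperatures were averaged.

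With cold, Gys2 differed by 0.18 ± 0.26 log2 units in WT, where the arrays overlapped, and by 2.06 ± 0.26, or 4.17-fold, in KO, where they did not. That rise in KO was rank 96 from the highest. Averaged over both genotypes Gys2 was 1.12 ± 0.18 higher in the cold, a value that joins a difference near 0 in WT with a large one in KO. It carries no test, since it uses the same KO arrays at room temperature that made Gys2 stand out. The KO difference was 1.88 ± 0.36 log2 units smaller in size in the cold than at room temperature, rank 21 from the highest, given as a description. Even in the cold KO did not reach the WT level.

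In bulk tissue a lower share of cells that make a transcript and less of it per cell cannot be told apart. With the muscle list mean as a covariate, the Gys2 differences were -3.35 between the genotypes at room temperature, -1.48 in the cold, and 2.06 between cold and room temperature in KO, as without it. The mean of 12 brown adipocyte genes also moved with genotype and cold. It lay from 9.34 to 9.46 in WT and from 8.69 to 8.93 in KO at room temperature, and from 9.99 to 10.11 over all cold arrays. The list did not rise as a whole with cold. Averaged over both genotypes, 4 of the 12 passed as higher and 4 as lower, against 12.9% and 14.3% of all genes. Of the 12 differences, 8 were below 0, with a median of -0.09. At room temperature 3 of the 12 passed as lower in KO (limma), against 0.284% of all genes. They were Dio2 by 3.55 ± 0.21 (adjusted p = 1.14e-05), Elovl3 by 2.00 ± 0.32 (adjusted p = 0.0169) and Ucp1 by 0.80 ± 0.14 (adjusted p = 0.0257). In the cold 0 passed between the genotypes, against 0.911% of all genes, with 4 at an unadjusted p under 0.05, against 14.4%. The part of these changes in the Gys2 values was not tested.

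The other 8 genes were tested in 7 comparisons, with passing set at a limma adjusted p under 0.05. Between the genotypes, 0 of 8 passed at room temperature, where 0.55% of all genes did, and 0 of 8 in the cold, against 0.911% of all genes. At an unadjusted p under 0.05 there were 1 of 8 at room temperature, against 11.4% of all genes, and 5 of 8 in the cold, against 14.4%. Averaged over both temperatures, 1 of 8 passed, Gyg, which was higher, against 1.63% of all genes in either direction and 0.794% higher. The arrays of the genotypes did not overlap for 2 of the 8 at room temperature, against 17% of all genes, and for 6 of the 8 in the cold, against 20.6%.

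Cold moved more of them. In WT 5 of the 8 genes were lower (Gys1, Gbe1, Pygb, Pygl and Ppp1r3b) and 0 higher, where 7.98% of all genes were lower and 9.39% higher, and the median difference of the 8 was -0.59 against -0.02 over all genes. In KO 4 were lower (the same without Gbe1) and 0 higher, where 10.8% of all genes were lower and 8.34% higher, with a median of -0.34 against 0.0039. Averaged over both genotypes 5 were lower, those lower in WT, where 14.3% of all genes were lower and 12.9% higher. The arrays at the 2 temperatures did not overlap for 7 of 8 genes in WT, against 36.8% of all genes, and for 6 of 8 in KO, against 31.6%. Centring each array on its median moved the median of all genes in KO to -0.12 and the share of passing genes that were lower from 56.5% to 70.6% in KO and from 52.5% to 64.0% on average, so the backgrounds above rest on the authors' scaling.

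**Figure D2:**
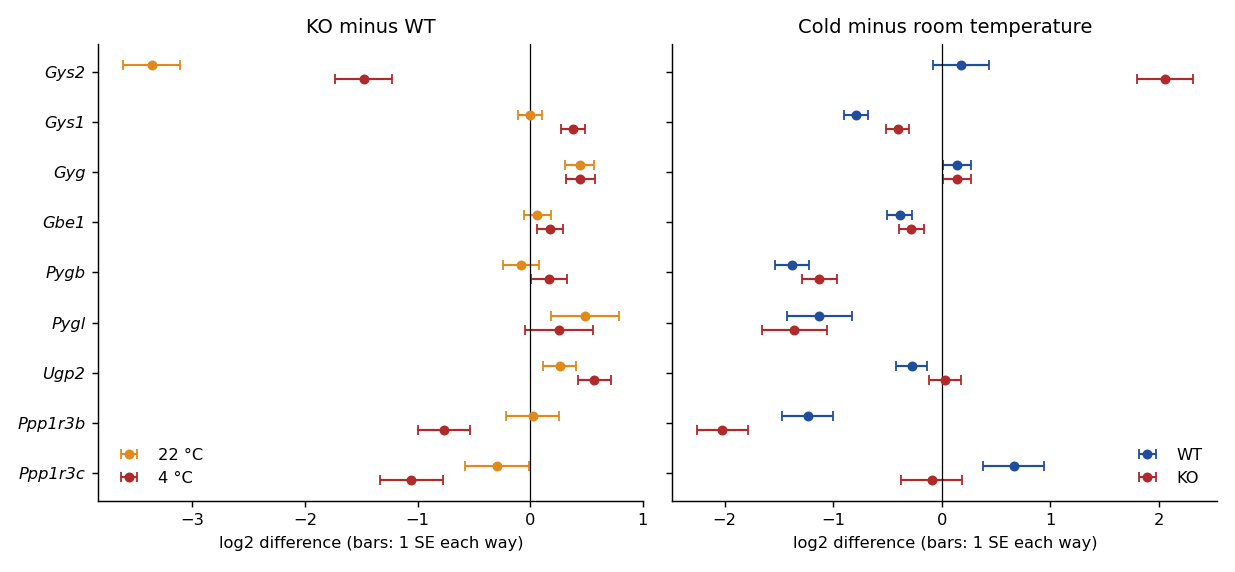
Log2 differences (horizontal axes) of the 9 genes (vertical axis), left KO minus WT at 22 °C and 4 °C, right cold minus room temperature in WT and KO; dots are fitted differences and bars 1 SE each way. On the left Gys2 is far from the rest at 22 °C, at -3.36. At 4 °C it is lowest, at -1.48, with Ppp1r3c at -1.06 and Ppp1r3b at -0.77. On the right Pygb, Pygl and Ppp1r3b lie below -1 in both genotypes.

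None of the 8 passed for the difference between the cold responses of the genotypes, with values from -0.79 to 0.38, a lowest adjusted p of 0.403, against 0.0271% of all genes passing. At an unadjusted p under 0.05 there were 2 of 8, against 10.5% of all genes. So the cold responses of these 8 genes were not shown to differ between WT and KO.

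The bases upstream of 4 of the genes that were lower in the cold are shown because these genes moved together. RefSeq sequences of build GRCm38.p6 were found for 7 of the 9 genes, and the last 250 bases before the start are printed 5′ to 3′ on the gene's strand: Gys1 (chr7:45434589-45434838, plus strand), Gbe1 (chr16:70313699-70313948, plus strand), Pygb (chr2:150786546-150786795, plus strand) and Pygl (chr12:70227684-70227933, minus strand). Capitals mark a core of the cyclic AMP response element, the letters TGACG read on either strand.
Gys1: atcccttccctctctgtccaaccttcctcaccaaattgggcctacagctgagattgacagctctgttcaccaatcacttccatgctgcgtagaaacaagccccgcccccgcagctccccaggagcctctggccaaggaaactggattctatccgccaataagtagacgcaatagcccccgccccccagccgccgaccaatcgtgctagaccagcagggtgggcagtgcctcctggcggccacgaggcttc
Gbe1: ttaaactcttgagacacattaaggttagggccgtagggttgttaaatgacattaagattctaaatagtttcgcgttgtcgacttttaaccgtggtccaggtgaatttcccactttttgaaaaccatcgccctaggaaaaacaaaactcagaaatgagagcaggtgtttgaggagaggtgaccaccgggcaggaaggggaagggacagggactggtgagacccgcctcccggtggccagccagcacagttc
Pygb: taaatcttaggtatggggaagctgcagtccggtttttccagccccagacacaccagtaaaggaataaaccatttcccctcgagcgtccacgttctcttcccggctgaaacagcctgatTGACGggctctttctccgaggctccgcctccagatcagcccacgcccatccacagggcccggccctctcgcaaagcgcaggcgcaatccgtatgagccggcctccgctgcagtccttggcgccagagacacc
Pygl: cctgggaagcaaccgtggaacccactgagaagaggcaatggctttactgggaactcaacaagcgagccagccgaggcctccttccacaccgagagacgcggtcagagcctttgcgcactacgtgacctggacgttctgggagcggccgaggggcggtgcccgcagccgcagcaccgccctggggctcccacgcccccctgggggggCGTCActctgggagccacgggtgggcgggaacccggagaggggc
The core was found in Pygb, 132 bases before the start, and in Pygl, where it stands as CGTCA 44 bases before it, and not in these windows of Gys1 and Gbe1. It occurs in 17.8% of 32851 promoters of this length. The full element TGACGTCA, which contains the core, occurs in 1.55% and was in none of the 7. The E-box CACGTG, which occurs in 6.02%, was in Ppp1r3c alone of the 7, 104 bases before the start. The Sp1-type GC box GGGCGG, present in 32.7%, was not in Gbe1, Pygb or Ppp1r3c. A match describes letters and not binding.

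Of the synthesis genes, Gys1, the muscle-type synthase found in most tissues, varied little between the arrays of a group. Its 3 arrays read 9.92, 9.98 and 10.08 log2 units in WT and 10.03, 9.94 and 9.99 in KO at room temperature, and 9.11, 9.27 and 9.22 in WT and 9.56, 9.57 and 9.63 in KO in the cold. The genotypes overlapped at room temperature, and both were lower in the cold with no overlap between the temperatures. Cold lowered Gys1 by 0.79 ± 0.11 in WT (adjusted p = 0.000388) and by 0.40 ± 0.11 in KO (adjusted p = 0.0188), the latter not passing without the first or the third KO array at room temperature or the second KO array in the cold (adjusted p = 0.0509 to 0.0600), nor in the 6 KO arrays alone (0.0780).

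The difference of Gys1 between the genotypes at room temperature was -0.0012, with a 95% interval from -0.23 to 0.23. In the cold KO was 0.38 ± 0.11 higher (adjusted p = 0.123) with no overlap of the arrays, and the call was past the threshold, at 0.0467, when the test was limited to genes averaging 5 log2 units or more.

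Gyg read 10.00, 10.33 and 9.97 in WT and 10.48, 10.58 and 10.56 in KO at room temperature, and 10.08, 10.29 and 10.35 in WT and 10.68, 10.69 and 10.67 in KO in the cold. All KO arrays were above all WT arrays at the same temperature. The difference was 0.44 ± 0.13 at each temperature (adjusted p = 0.186 and 0.139) and 0.44 ± 0.09 averaged, or 1.36-fold (adjusted p = 0.0347). The averaged call was lost in 10 of 12 fits with 1 array removed (adjusted p = 0.0583 to 0.0994), which were all but those without the second WT array at room temperature or the first KO array in the cold. It also did not pass with the muscle list as covariate (0.0791) and passed in 9 of 21 settings. With cold, Gyg differed by 0.14 ± 0.13 in each genotype (adjusted p = 0.552 and 0.525).

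Ugp2, which makes the UDP-glucose that synthase uses, read 8.46, 8.61 and 8.74 in WT and 8.93, 8.90 and 8.76 in KO at room temperature. In the cold WT arrays read 8.42, 8.28 and 8.29, while KO arrays read 8.85, 8.65 and 9.18. KO lay above WT on every array at each temperature, narrowly so at room temperature. The difference was 0.26 ± 0.15 (adjusted p = 0.547) at room temperature and 0.57 ± 0.15 (adjusted p = 0.0953) in the cold, and averaged 0.41 ± 0.10 (adjusted p = 0.0701), so none passed. The averaged difference passed in 3 of 21 settings, without the second KO array in the cold (0.0430), with only the genes above the signal minimum (0.0297) and with a trended, robust spread (0.0397). Cold changed Ugp2 by -0.28 ± 0.15 in WT (adjusted p = 0.240) and by 0.03 ± 0.15 in KO (adjusted p = 0.923).

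Gbe1, the branching enzyme, read 9.92, 10.18 and 10.16 in WT and 10.18, 10.19 and 10.08 in KO at room temperature, and 9.81, 9.64 and 9.66 in WT and 9.92, 9.87 and 9.83 in KO in the cold. The cold arrays lay below those at room temperature in both genotypes. The decrease was 0.39 ± 0.12 in WT (adjusted p = 0.0379) and 0.28 ± 0.12 in KO (adjusted p = 0.127), and averaged 0.33 ± 0.08 (adjusted p = 0.00883). The WT call was lost when any of 6 arrays was left out, namely the second and the third WT arrays at room temperature, the first KO array at room temperature or any WT array in the cold (adjusted p = 0.0517 to 0.125), and with the muscle covariate (0.0582).

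**Figure D3:**
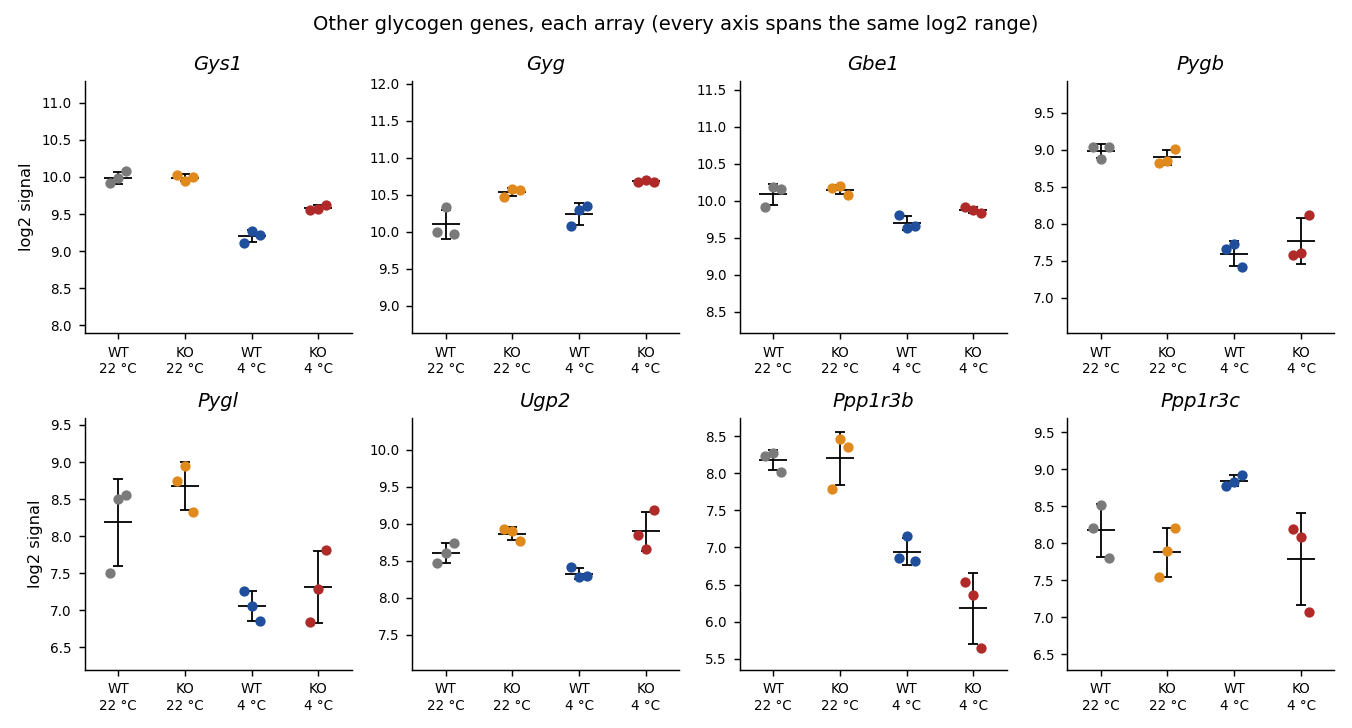
Log2 signal (vertical axes, each spanning the same range) of the 8 genes other than Gys2 on each array, by genotype and temperature (horizontal axes); dots are arrays and the black marks and bars group means and SDs of 3 arrays. Pygb, Pygl and Ppp1r3b drop in the cold in both genotypes, and Gyg lies higher in KO at both temperatures.

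The breakdown genes Pygb and Pygl, the brain-type and liver-type glycogen phosphorylases, were both lower in the cold in each genotype. Pygb read 9.03, 8.87 and 9.04 in WT and 8.82, 8.85 and 9.02 in KO at room temperature, and 7.65, 7.73 and 7.41 in WT and 7.58, 7.60 and 8.12 in KO in the cold. The gap between the temperatures was wide and the genotypes overlapped at each. Cold lowered Pygb by 1.38 ± 0.16 in WT, or 2.60-fold (adjusted p = 0.000141), and by 1.13 ± 0.16 in KO, or 2.18-fold (adjusted p = 0.000428), and averaged by 1.25 ± 0.11 (adjusted p = 6.82e-06). Of the differences between the genotypes, -0.08 ± 0.16 at room temperature and 0.17 ± 0.16 in the cold, neither passed (adjusted p = 0.899 and 0.687).

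Pygl varied more between arrays. It read 7.51, 8.51 and 8.55 in WT and 8.75, 8.95 and 8.33 in KO at room temperature, and 7.27, 7.06 and 6.86 in WT and 6.85, 7.29 and 7.81 in KO in the cold. The first WT array at room temperature was low, but it stayed above the WT cold arrays. Cold lowered Pygl by 1.13 ± 0.30 in WT, or 2.19-fold (adjusted p = 0.0209), and by 1.36 ± 0.30 in KO, or 2.57-fold (adjusted p = 0.00671). The WT call was lost without the second or the third WT array at either temperature (adjusted p = 0.0594 to 0.0835), while the averaged decrease of 1.24 ± 0.21 had an adjusted p of 0.000722. Between the genotypes the differences were 0.49 ± 0.30 at room temperature (adjusted p = 0.595) and 0.26 ± 0.30 in the cold (adjusted p = 0.756).

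The targeting subunits of protein phosphatase 1 did not move alike. Ppp1r3b, the subunit called GL that is abundant in liver, read 8.24, 8.28 and 8.02 in WT and 7.79, 8.46 and 8.36 in KO at room temperature, and 6.86, 7.16 and 6.82 in WT and 6.54, 6.36 and 5.64 in KO in the cold. Cold lowered it by 1.23 ± 0.23 in WT, or 2.35-fold (adjusted p = 0.00317), and by 2.02 ± 0.23 in KO, or 4.06-fold (adjusted p = 0.000116). All cold arrays lay below all room temperature arrays, and the KO cold arrays lay below the WT cold arrays. The genotype difference in the cold, -0.77 ± 0.23, had an adjusted p of 0.157, and the difference between the 2 cold responses, -0.79 ± 0.33, one of 0.430, so neither passed.

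The lowest Ppp1r3b value was on the third KO array in the cold, the one with the high neutrophil list mean, whose part in the result was not tested. Without that array the decrease in KO was 1.75. A second Ppp1r3b probe set, dimmer with a mean of 5.18, was lower in the cold by 0.69 in WT (adjusted p = 0.0774) and by 0.55 in KO (adjusted p = 0.155), and by 0.62 ± 0.17 averaged (adjusted p = 0.0180), a smaller decrease than on the brighter one. On it the genotypes differed by -0.03 ± 0.24 in the cold (adjusted p = 0.977). The difference between its 2 cold responses was 0.14 ± 0.35 (adjusted p = 0.915), opposite in sign to the brighter one.

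Ppp1r3c, the subunit called PTG, read 8.21, 8.52 and 7.80 in WT and 7.54, 7.90 and 8.20 in KO at room temperature, and 8.77, 8.83 and 8.92 in WT and 8.20, 8.09 and 7.07 in KO in the cold. The 3 WT cold arrays were the highest of the 12 and lay above all KO cold arrays. The differences were 0.66 ± 0.28 with cold in WT (adjusted p = 0.137), -0.09 ± 0.28 with cold in KO (adjusted p = 0.876) and -1.06 ± 0.28 between KO and WT in the cold (adjusted p = 0.108), and none passed. The third KO array in the cold was again the lowest. Without it the cold difference in WT, whose arrays are unchanged, had an adjusted p of 0.0378, and the averaged cold difference was 0.47 (adjusted p = 0.0377). The WT difference also passed in the 6 WT arrays alone (0.03685), and so in 2 of 22 settings.

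Over the 12 arrays the Pearson correlation of Gys2 with the other 8 genes lay between -0.67 (Ugp2) and 0.58 (Ppp1r3c), and Ugp2 and Ppp1r3c correlated at -0.92. These values describe arrays that share the 4 groups. Of 8147 genes averaging 5 log2 units or more that were ranked by likeness, the most like Gys2 were Sgcd (0.93), Slc25a20 (0.93), Paqr9 (0.91), Hsd17b12 (0.91) and Flad1 (0.90), each as r over 12 arrays. The most opposed were Zfp398 (-0.95), Dennd4b (-0.94) and Ccser2 (-0.91). Slc25a20, the mitochondrial carnitine carrier, averaged 10.80 log2 units in WT against 10.26 in KO at room temperature, and 10.96 against 10.57 in the cold. Each of the 5 genes was lower in KO at both temperatures, by less than Gys2. Their choice by likeness to Gys2, itself picked for its lower signal in KO, favours both, so this is a description.

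Of 31 further genes of the pathway, 27 were measured. Between the genotypes 0 passed at room temperature, in the cold or averaged (limma), with 3, 5 and 6 at an unadjusted p under 0.05, where the shares of all genes were 11.4%, 14.4% and 14.7%. With cold, 7 were lower and 1 higher in WT, 7 lower and 0 higher in KO, and 8 lower and 3 higher when averaged, against the shares of all genes given above. None passed for the difference of the cold responses, with 3 at an unadjusted p under 0.05, against 10.5% of all genes.

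The lowered genes covered phosphatase targeting, phosphorylase kinase and sugar transport. Ppp1r3d, another targeting subunit, read 8.22, 8.69 and 8.53 in WT and 7.81, 7.76 and 7.48 in KO at room temperature, and 6.42, 6.59 and 6.72 in WT and 5.75, 6.66 and 6.78 in KO in the cold. It fell by 1.90 ± 0.24 in WT (adjusted p = 0.000235) and by 1.29 ± 0.24 in KO (adjusted p = 0.00243), with every cold array below every room temperature array. Slc37a4, the transporter that carries glucose 6-phosphate into the endoplasmic reticulum, fell by 1.14 ± 0.20 in WT (adjusted p = 0.00213) and by 1.67 ± 0.20 in KO (adjusted p = 0.000160). Epm2a, the glycogen phosphatase laforin, fell by 1.58 ± 0.28 in WT (adjusted p = 0.00210) and by 1.16 ± 0.28 in KO (adjusted p = 0.0114).

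Phosphorylase kinase activates phosphorylase by phosphorylating it. Its liver-type alpha subunit Phka2 fell by 0.76 ± 0.16 in WT (adjusted p = 0.00652) and by 0.79 ± 0.16 in KO (adjusted p = 0.00461). Its beta subunit Phkb fell by 0.54 ± 0.16 in each genotype (adjusted p = 0.0311 in WT and 0.0292 in KO). The Phkb calls within a genotype lay near the threshold and were lost on removing single arrays. The WT call was lost without any one of 5 arrays, the second and the third WT array at room temperature and each WT array in the cold (0.0580 to 0.114). The KO call was lost without the first or second KO array at room temperature or the second in the cold (0.0884 to 0.111). It also did not pass in the 6 KO arrays alone (0.0745). The average, 0.54 ± 0.11 lower, had an adjusted p of 0.00259.

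Slc2a4, the insulin-regulated glucose transporter GLUT4, fell by 0.53 ± 0.13 in WT (adjusted p = 0.0165) and by 0.75 ± 0.13 in KO (adjusted p = 0.00195). The WT call was lost without the second WT array at room temperature or the third WT array in the cold (0.0604 to 0.0622). Ppp1r3e, a further targeting subunit, fell by 0.85 ± 0.21 in WT (adjusted p = 0.0135), lost without either of those arrays (0.0569 to 0.0601), and differed by -0.41 ± 0.21 in KO (adjusted p = 0.206). Ppp1ca, a catalytic subunit of protein phosphatase 1, fell by 0.60 ± 0.18 in KO (adjusted p = 0.0345) and by 0.40 ± 0.13 averaged (adjusted p = 0.0340). The KO call was lost without the first or second KO array at either temperature (0.0643 to 0.127). The averaged call was lost in 8 of 12 fits with 1 array removed (0.0509 to 0.0849) and with the muscle covariate (0.05495).

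The 3 genes higher in the cold were Nhlrc1 and the hexokinases Hk2 and Hk1, which trap glucose in the cell. Nhlrc1, the ubiquitin ligase malin that partners laforin, rose by 1.53 ± 0.33 in WT (adjusted p = 0.00710) and differed by 0.47 ± 0.33 in KO (adjusted p = 0.394), a contrast that did not itself pass (0.459), and averaged it was 1.00 ± 0.23 higher (adjusted p = 0.00647). Hk2 was 0.45 ± 0.13 higher averaged (adjusted p = 0.0220). It did not pass without the third WT array in the cold (0.0556), after centring each array (0.0741) or with the muscle covariate (0.0622). Hk1 was 0.37 ± 0.13 higher averaged (adjusted p = 0.0491), and this call passed in only 7 of 21 settings.

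**Figure D4:**
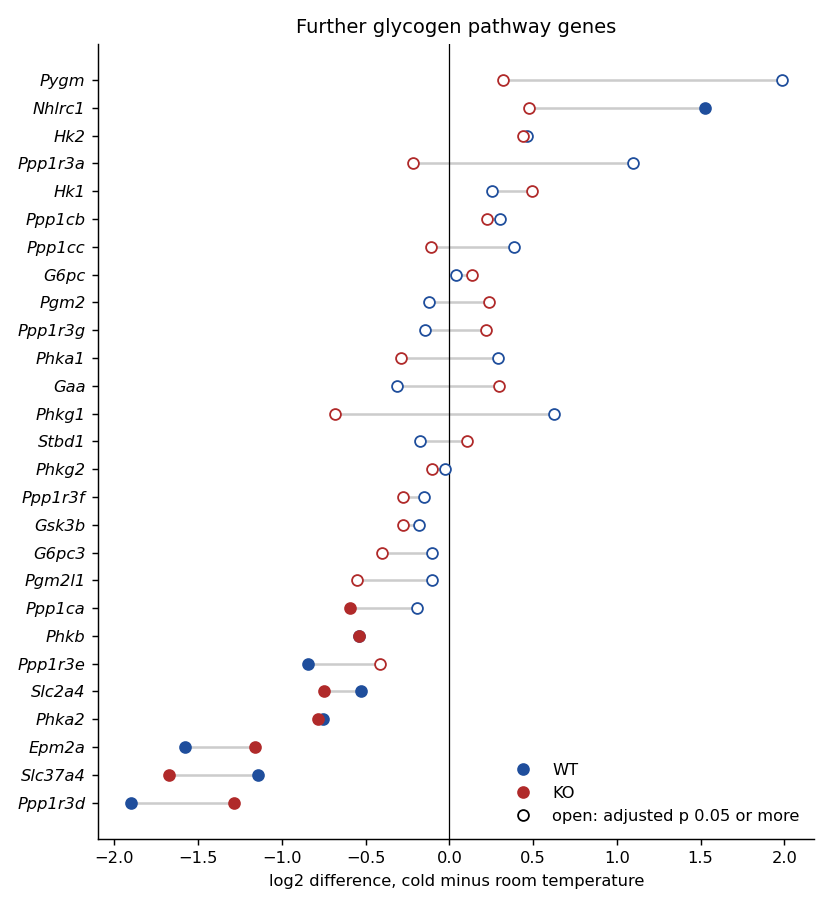
Log2 difference between cold and room temperature (horizontal axis) of the 27 further pathway genes (vertical axis, ordered by the averaged difference); blue is WT, red is KO, filled dots passed at an adjusted p under 0.05 and open dots did not. Ppp1r3d, Slc37a4 and Epm2a lie lowest, and Nhlrc1 is the only filled dot above 0, in WT.

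Some pathway genes known from muscle varied with the muscle list mean. Pygm, the muscle glycogen phosphorylase, read 5.29, 7.40 and 5.18 in WT and 9.86, 8.61 and 5.61 in KO at room temperature, and 6.37, 8.44 and 9.01 in WT and 9.80, 5.92 and 9.30 in KO in the cold. On the same arrays in the same order the muscle list mean was 3.27, 6.33, 3.01, 8.46, 7.49, 3.37, 5.16, 7.15, 7.65, 8.20, 4.39 and 8.08. Within each group Pygm was highest and lowest on the arrays where the list mean was. Phkg1, the muscle catalytic subunit of phosphorylase kinase, did not follow it in WT at room temperature, where it read 4.25, 3.90 and 4.62. Pygm, Ppp1r3a (the muscle targeting subunit) and Phkg1 passed in none of the 7 comparisons, with wide intervals such as -0.51 to 4.65 for Pygm between the genotypes at room temperature.

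**Figure D5:**
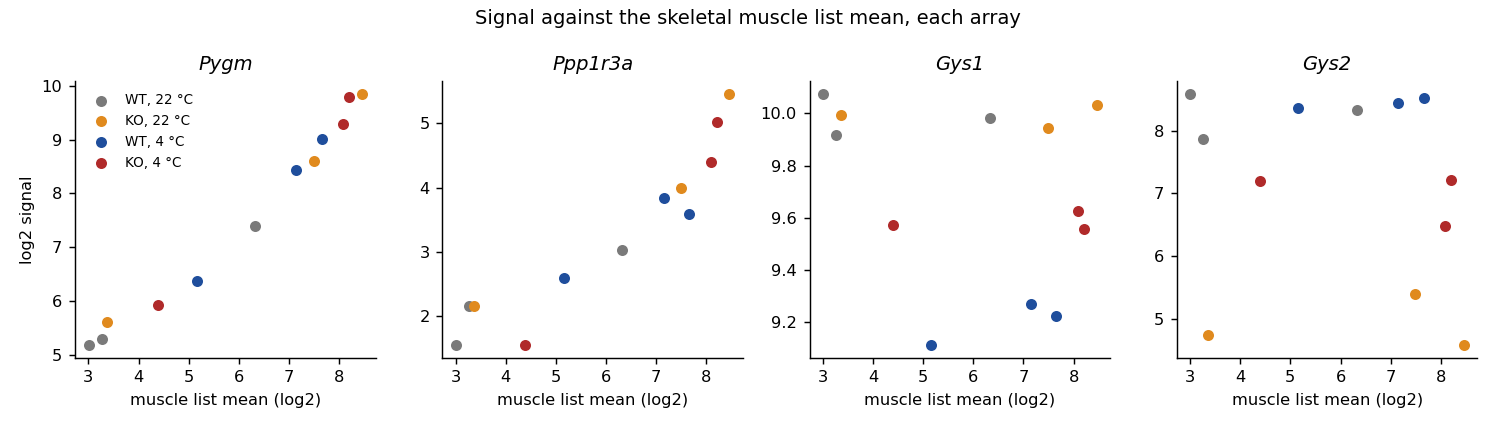
Log2 signal (vertical axes) of Pygm, Ppp1r3a, Gys1 and Gys2 on each array against the mean of 22 skeletal muscle genes (horizontal axes, log2), coloured by group. Pygm and Ppp1r3a climb with the muscle mean, while Gys2 separates by genotype and Gys1 by temperature.

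Macrophage genes also differed between the groups, with 12 of 13 above 0 for KO against WT at room temperature and with cold in WT. Their medians there were 0.74 and 0.70, against 0.0085 and -0.02 over all genes. The mean of 13 macrophage genes lay between 5.64 and 5.95 in WT and between 6.36 and 6.75 in KO at room temperature, and between 6.19 and 6.62 in WT and between 6.28 and 7.002 in KO in the cold. Of the 13, 6 were higher with cold in WT and 0 lower, and 3 were higher and 1 lower in KO, against 9.39% of all genes higher in WT and 8.34% higher and 10.8% lower in KO. Between the genotypes 0 of 13 passed at room temperature, where 0.55% of all genes did. Even so, 11 had an unadjusted p under 0.05, against 11.4% of all genes. In the cold Cd68 and Mrc1 passed, higher in KO by 0.99 ± 0.20 and 1.05 ± 0.20 (adjusted p = 0.0466 and 0.0329), against 0.361% of all genes higher. Both also passed averaged, against 0.794% higher. The list did not rise as a whole between the genotypes in the cold, with 8 of the 13 above 0 and 5 below (median 0.12). With cold in KO 6 were above 0 and 7 below (median -0.09), while averaged over both temperatures 13 were above 0 between the genotypes (median 0.40). The part of the macrophage genes in the results for the glycogen genes was not tested.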

How the data were processed

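Brown fat RNA was measured on 12 arrays. Per the labels, biotinylated cDNA was hybridised to Affymetrix whole-transcript arrays, and the submitters' processing notes name oligo, RMA and limma with no versions. The deposited values are log2 signals that the authors made with RMA, which corrects background, equalises the arrays' distributions and summarises each probe set. Of 41345 probe sets, 23521 carried exactly 1 symbol in the platform annotation, 1814 several and 16010 none. The brightest was kept for 1082 genes with several, leaving 22180 genes with no filter on signal. Within-group correlations were 0.970 to 0.985, and the number of arrays, 3 per group, limits the precision. Every sample column was mapped.

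In R 4.3.3 with limma 3.58.1, a model with each group's mean (lmFit, eBayes) used all 12 arrays and gave 7 comparisons. Tests were two-sided and Benjamini-Hochberg adjusted over 22180 genes, with the threshold at 0.05. The fit was tested on simulated data. Genes named by rule are the 9, Zbtb7b, every further pathway gene that passed, defining markers, and the 5 highest and 3 lowest in correlation with Gys2. Pygm, Ppp1r3a, Phkg1, Gaa, Dio2, Elovl3, Mrc1, Cyp2e1 and Hpd were named outside that rule, with their values known. The genes and lists were chosen with earlier results of these data known, and the marker lists covered skeletal muscle, hepatocyte, brown and white adipocyte, neutrophil and macrophage genes. The brown adipocyte list mean lay between 8.69 and 10.11, the white adipocyte mean between 5.22 and 6.13, and the hepatocyte mean between 2.74 and 3.03. Alternatives varied pairing, arrays, probe sets, signal filter, normalization, spread, weights and a muscle covariate.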

Additional observations from a re-analysis of the deposited data

How the results depend on the processing

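Averaged over both temperatures, the count of genes passing between the genotypes, 1 of 8 (Gyg), was 0 with a replicate block, 0 with the muscle covariate, 2 (with Ugp2) among genes averaging at least 5 and with a trended, robust spread, and 0 to 1 without single arrays. In the cold it was 2 (Gys1 and Ugp2) among genes averaging at least 5. Of the further pathway genes, 1 (Gaa, chosen after its values were seen) passed between the genotypes in the cold under that filter, cyclic loess, a trended, robust spread and array weights, and 0 to 1 without single arrays. The range without single arrays was 0 to 1 at room temperature (Ppp1r3d, without the first KO array in the cold) and 0 to 1 averaged (Hk2, without the third KO array in the cold). In the main fit Gaa was 0.66 ± 0.16 higher in KO in the cold (limma adjusted p = 0.0728), with no overlap of the arrays, and did not pass.

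With cold in WT, 3 to 6 of the 8 genes passed without single arrays, 3 without the second or the third WT array at either temperature, and 5 to 9 further pathway genes, 5 without the second WT array at room temperature or the third in the cold. In other settings these counts stayed within 1.5 times.

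Among the differences tried, signs turned for those near 0. Between the genotypes at room temperature, Ppp1r3b was -0.0711 as the mean of its probe sets, -0.0075 after cyclic loess, and -0.1072 to 0.2297 without single arrays. Gys1 was 0.0402 after centring and -0.0387 to 0.041 without single arrays, and Gbe1 -0.0205 to 0.1127. Without single arrays, Pygb was -0.0086 to 0.2631 between the genotypes in the cold and -0.0464 to 0.0894 averaged. With cold, Ugp2 in KO was -0.0894 after centring, -0.0506 with array weights and -0.1121 to 0.1522 without single arrays, Ppp1r3c in KO -0.3003 to 0.2655, and Gys2 in WT -0.0215 to 0.3428. The cause was not tested.

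Gys2 kept its direction otherwise, from -3.60 to -3.19 between the genotypes at room temperature, -1.60 to -1.24 in the cold, and 1.90 to 2.30 with cold in KO. Same-numbered arrays of different groups correlated between -0.537 and 0.451 in their deviations, so the numbers were not taken as pairs. The replicate block ended, beside the Gyg call (adjusted p = 0.0503), those of Gbe1 (0.0644) and Phkb (0.0501) with cold in WT, Ppp1ca with cold in KO (0.05004) and Hk1 with cold averaged (0.0569), and no other call of the 8 genes or the further pathway genes. Centring moved the share of lower genes among those passing between the genotypes in the cold from 60.4% to 68.3%, and cyclic loess to 49.1%.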
